A study of Homo sapiens with 12 samples.

Results

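The genes described here are AHNAK2, DST, ZNF469, ANKRD11, AHNAK, FAT1, ZFHX3, PCLO and CENPF, which carried more m6A peaks than almost any other gene in the 6 deposited peak lists. They were chosen by counting the peaks that carry each gene's Entrez number and summing over the lists. The 9 genes held 650 of 81380 peaks, among 10536 genes with a peak, and the median gene had 6 peaks in all lists together. Values of a group are given in the order of replicates 1, 2 and 3. Because the number of peaks chose the genes, that number is given as a description and is not tested. The lowest of the 9, CENPF, had 62 peaks, and the next genes below it were MKI67 with 59, VCAN with 57 and SPEN with 54.

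The cells were 143B, an established human osteosarcoma line, transfected with ALKBH5 siRNAs (knockdown) or with a scrambled siRNA (control) and harvested after 48 h. Each condition had 3 m6A immunoprecipitates, whose peak lists are analysed here, and 3 input samples that are not analysed here. Polyadenylated RNA was used for replicates 1 and 3, with an antibody from Synaptic Systems and with Millipore ABE572, and replicate 2 used total RNA with the Magna MeRIP kit and its antibody MABE1006. The labels' antibody field gives the antibody of replicate 1 for every library, so the others rest on the protocol text. No label says whether replicates were separate cultures, so p-values measure only the spread between these samples, which may be technical. All samples came from 1 cell line, and no measure of ALKBH5 level is in the lists: ALKBH5 itself had 0 peaks in each knockdown library and 1, 0 and 1 in scrambled.

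N6-methyladenosine (m6A) is the most common internal methyl mark of messenger RNA. It is written by the METTL3-METTL14 complex as the RNA is made, read by proteins such as the YTH family, and taken off by the demethylases ALKBH5 and FTO. Long exons and the region around the stop codon are the places best known for it. In MeRIP-seq the RNA is first broken into fragments, so a peak marks a stretch of RNA that the antibody enriched, not a base, and neighbouring marks can merge into 1 peak.

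The lists differed in size, and every value below is read with that in mind. They held from 5677 to 18724 peaks, and their peaks covered from 961.2 to 7855.5 kb of exon sequence, lowest in both libraries of replicate 2. Depth is unknown because the lists hold no read counts, and a place without a peak is not shown to be unmethylated. Among osteoblast genes checked against the label of the cells, RUNX2, COL1A1, SPP1 and BGLAP had a peak, and SP7, ALPL, COL1A2, SPARC and IBSP had none. Of the markers of other cell types, CD14 was the 1 of 4 leukocyte genes with a peak, and 0 of 3 epithelial and 0 of 3 endothelial genes had one. A peak is not an RNA level, so this describes the lists and not the expression of these genes.

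The 9 genes together had 126, 79 and 107 peaks in knockdown, and 119, 90 and 129 peaks in scrambled. Per 1000 peaks of the list that was 7.17, 13.4 and 5.83 for knockdown and 7.86, 15.9 and 6.89 for scrambled. The genes therefore took their largest share in the short lists of replicate 2, and in each same-numbered pair the knockdown share was the smaller. The median exon length of these peaks was 270 nt, and that of all other peaks 241 nt. Peaks of at least 1000 nt made up 8.77% of theirs (57 peaks) and 5.16% of all others. Knockdown replicate 3 and scrambled replicate 3 had 21 such peaks each, knockdown replicate 1 had 13, scrambled replicate 1 had 2, and neither library of replicate 2 had any.

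**Figure D1:**
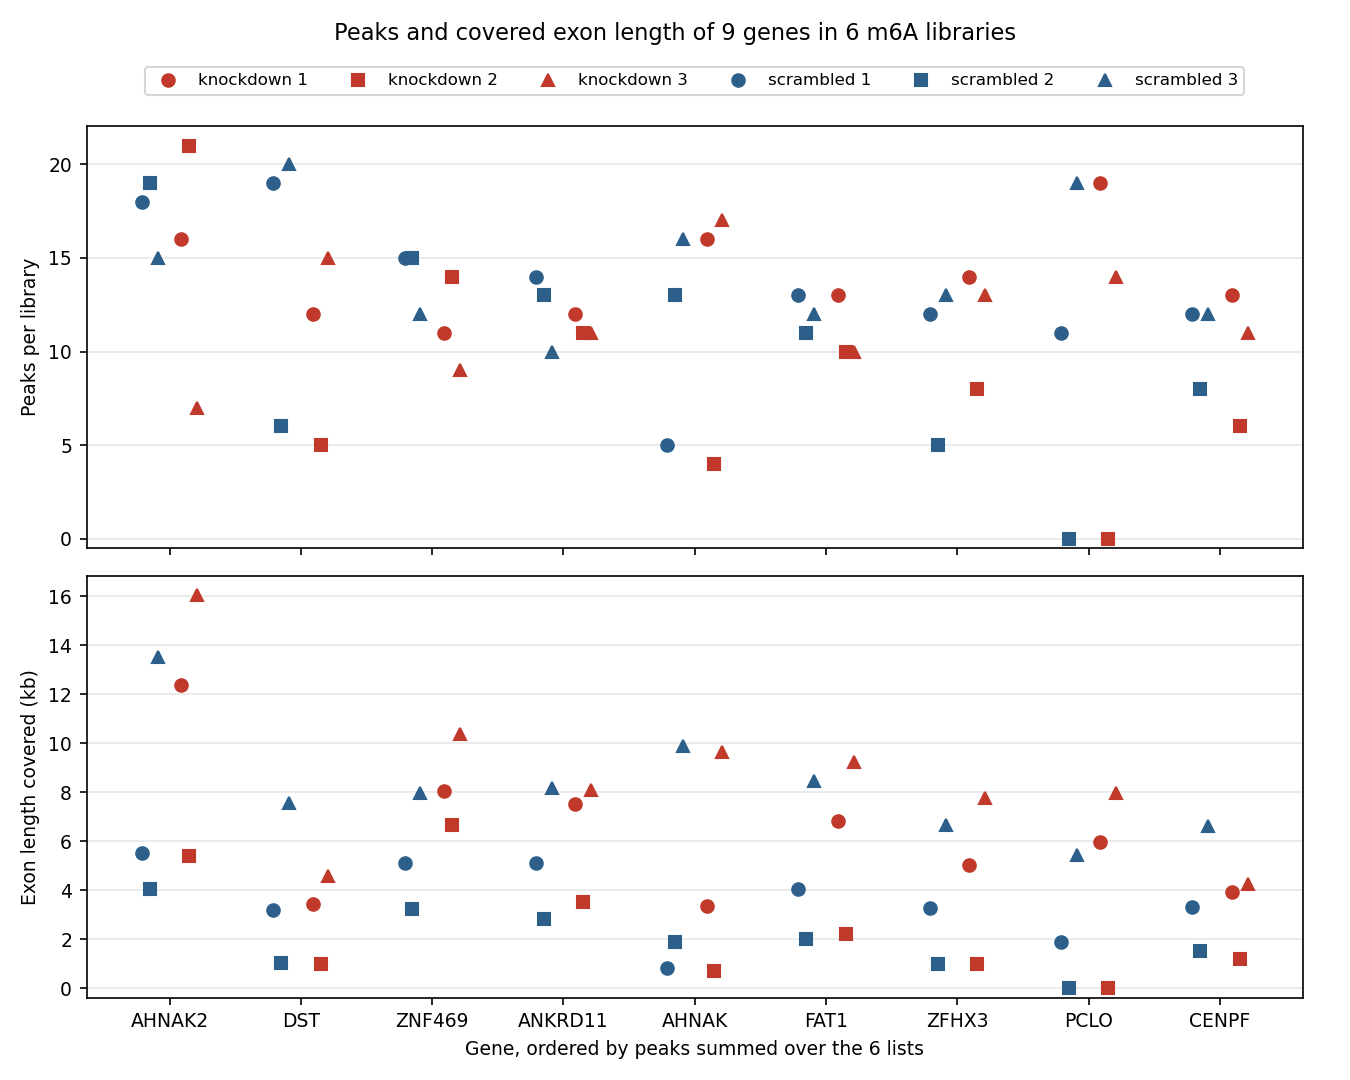
Peaks (upper panel) and covered exon length in kb (lower panel) of each of the 9 genes in each of the 6 libraries, 1 point per library, knockdown in red and scrambled in blue, with the replicate number given by the marker shape. Covered length is lowest in replicate 2 for 8 of the 9 genes in the scrambled libraries and for all 9 in the knockdown libraries, while peak number does not follow that order: AHNAK2 has 21 peaks in knockdown replicate 2 and 7 in knockdown replicate 3.

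Peak number and covered length described different things in these genes. Covered length is the exon sequence under a gene's peaks, each nucleotide counted once per library. Of the 26 same-numbered comparisons with a peak (9 genes in 3 pairs, without PCLO in replicate 2), the knockdown library covered more exon sequence in 19 and listed fewer peaks in 16. In 11 of the 26 it had fewer peaks and yet covered more, and the reverse occurred in 2. Across whole lists the ratio of covered length, knockdown over scrambled, was 1.57, 1.13 and 1.0 in pairs 1, 2 and 3, and for the 9 genes summed the ratios were 1.76, 1.24 and 1.05.

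AHNAK2 and AHNAK encode giant repeat-containing scaffold proteins at the cell membrane. AHNAK2 had the most peaks of the 9, 96 in all, and its peaks formed an almost unbroken tract. They lay at chr14:105403801-105421313 on the minus strand (hg19), and peaks of at least 1 library covered 93.0% of that 17513-nt span. Its 4 sites, where a site is a set of overlapping peaks from any libraries, were called in all 6 libraries.

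In AHNAK2 the lists covered different amounts of this tract, in very different numbers of peaks. All 6 libraries shared 1966 nt, or 12.1% of the sequence covered in any library. There were 16, 21 and 7 peaks in knockdown, and 18, 19 and 15 in scrambled. The exon length they covered was 12394, 5388 and 16043 nt in knockdown and 5505, 4066 and 13503 nt in scrambled. The library with the fewest peaks, knockdown replicate 3, thus covered the most sequence. Its longest peak ran for 5096 nt at chr14:105407278-105412373 without a break and overlapped 5 separate peaks of scrambled replicate 3. The site at chr14:105414262-105419327 held 4, 8 and 1 peaks in knockdown, and 7, 7 and 4 in scrambled.

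The knockdown mean of AHNAK2 was 11280 ± 5410 nt (SD, n = 3) and the scrambled mean 7691 ± 5080 nt (SD, n = 3). The groups overlapped and the difference of 3584 nt was within the spread between libraries (exact permutation test, two-sided, p = 0.5; the smallest p possible with 3 against 3 is 0.1). Here and below, the spread takes in the changes of RNA type and antibody between replicates, which this test does not separate. The difference was between 1200 nt (without knockdown replicate 3) and 6527 nt (without knockdown replicate 2) with 1 library left out. It was 6490 nt without scrambled replicate 3 and 1771 nt without scrambled replicate 2. Leaving out 1 library, for this gene and the others, leaves its same-numbered partner unmatched. Such values therefore also carry the differences between replicate numbers. Within the pairs the knockdown library covered 2.25, 1.33 and 1.19 times the length of its scrambled partner. AHNAK2 was the only one of the 9 genes with other peaks on its own strand: 29 peaks without a gene number overlapped it, 4 to 6 in a library. Between 95.8% and 99.7% of their sequence lay in AHNAK2 peaks of the same library, and 0 of them had the position of an AHNAK2 peak. They entered the sites, where they joined the 5' end of the covered tract to a stretch further down, and not the peak numbers or the covered length. With AHNAK2's own peaks alone there were 5 sites, each called in all 6 libraries.

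The 71 peaks of AHNAK lay at chr11:62284392-62301529 on the minus strand, with 0 peaks broken over several exon blocks. They covered 63.7% of that 17138-nt span, which is the extent of the peaks and not of the gene. The peak number of AHNAK differed by 11, -9 and 1 between knockdown and scrambled within the pairs, the widest range among the 9 genes. Scrambled replicate 1 had 5 peaks over 814 nt and knockdown replicate 1 had 16 over 3369 nt. In replicate 2 the order turned, with 13 peaks over 1898 nt in scrambled and 4 over 691 nt in knockdown. Replicate 3 listed 16 peaks over 9871 nt in scrambled and 17 over 9660 nt in knockdown. The pair ratios of covered length were therefore 4.14, 0.364 and 0.979, the widest range among the 9.

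Of 15 AHNAK sites, 2 were called in all 6 libraries, at chr11:62287508-62289006 and chr11:62284752-62287178, toward the 3' end of the covered stretch. The sequence that all 6 libraries shared came to 90 nt in 1 interval, chr11:62285501-62285590, or 0.824% of the sequence covered in any library. Knockdown and scrambled means were 4573 ± 4600 nt and 4194 ± 4950 nt (SD, n = 3 each), indistinguishable against that spread (exact permutation test, two-sided, p = 1.0). The direction of the 379-nt difference was not stable: it was -2164, -1311 and -769.2 nt without knockdown replicate 3, scrambled replicate 1 or scrambled replicate 2, and 3217 nt without scrambled replicate 3. It was also negative with the best-scored 50% of each list (-580.7 nt) and at equal list size (-772 nt). The best-scored AHNAK peak of a library stood at the 63.2nd to 85.9th percentile of its own list. For AHNAK2 the best-scored peak stood at the 88.8th (knockdown replicate 3) to 98.4th percentile (knockdown replicate 1). The score is the authors' value for each peak and is used here only for ranks within a list.

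**Figure D2:**
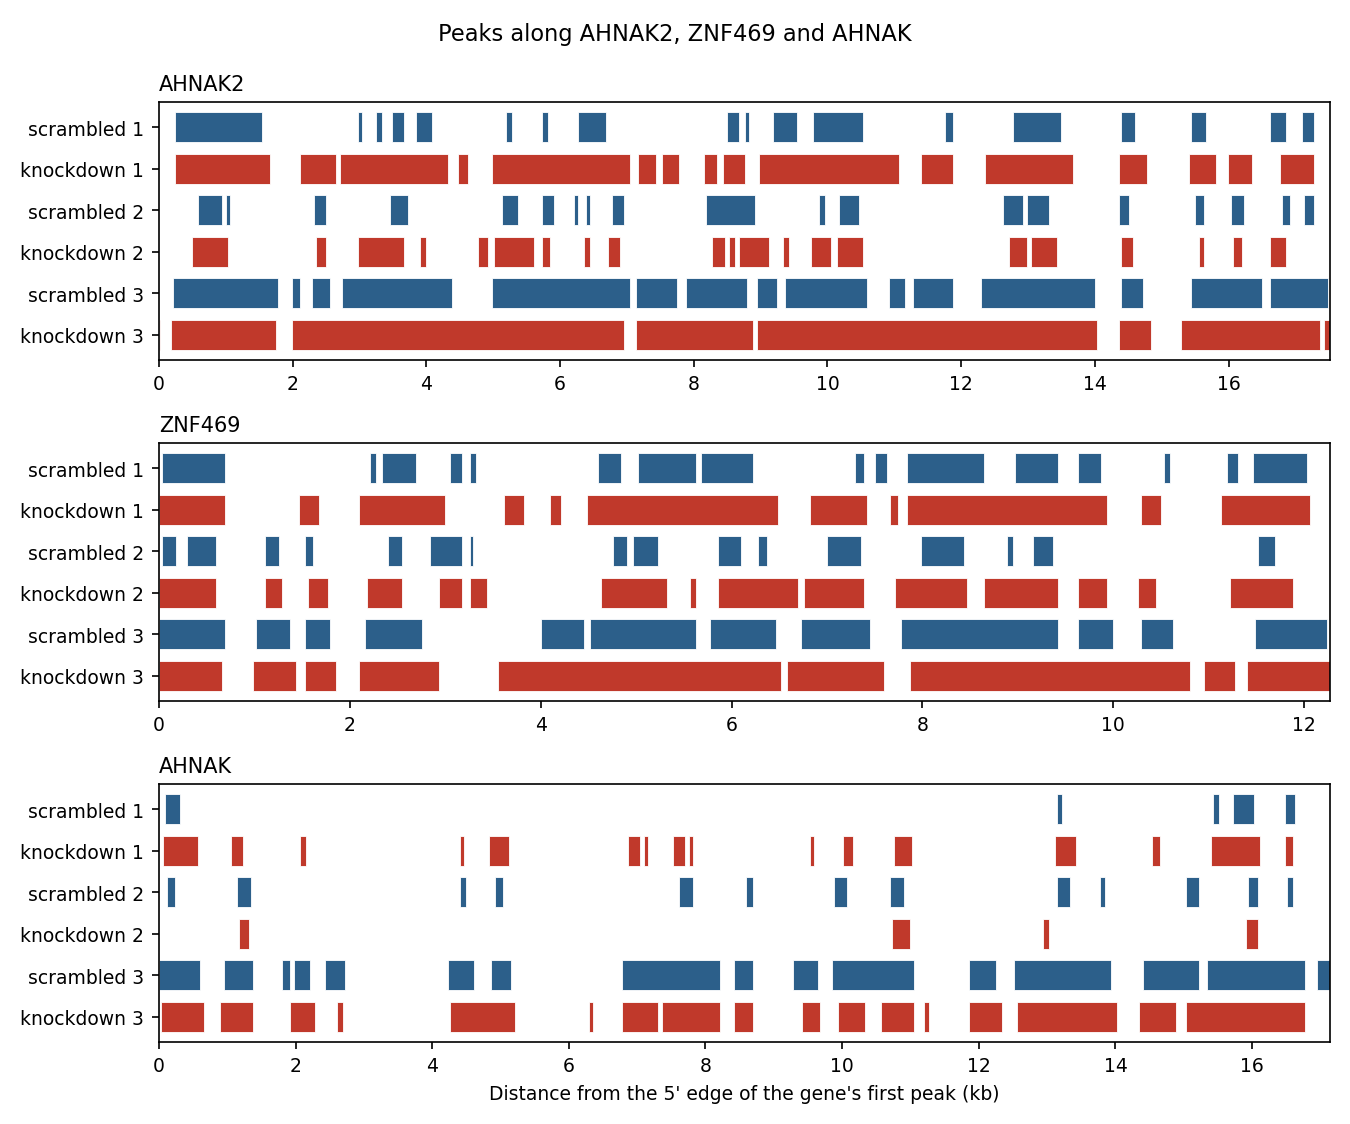
Peaks of each library along AHNAK2, ZNF469 and AHNAK, with distance in kb from the 5' edge of the gene's first peak on the x axis and 1 row per library, scrambled in blue above its same-numbered knockdown partner in red. Long unbroken bars in knockdown replicate 3 stand where scrambled replicate 3 has several bars in AHNAK2 (7 against 15 peaks) and ZNF469 (9 against 12), and AHNAK has few bars in scrambled replicate 1 and knockdown replicate 2.

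DST encodes dystonin, a plakin that links cytoskeletal filaments to each other and to adhesion sites. Its 77 peaks were scattered over chr6:56323655-56557952 on the minus strand, a 234298-nt span of which they covered 3.73%. DST had 12, 5 and 15 peaks in knockdown and 19, 6 and 20 in scrambled, so the knockdown number was lower in each pair. Covered length was 3429, 964 and 4570 nt in knockdown and 3198, 1025 and 7575 nt in scrambled. The pair ratios of 1.07, 0.94 and 0.603 did not run one way.

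DST was the gene with the most sites in a single library. Of its 22 sites, 9 were called in 1 library only, all 9 of these in scrambled replicate 1 or 3, and 3 were called in all 6 libraries. The shared ones lay toward the 3' end, at chr6:56418398-56420596, chr6:56401716-56418278 and chr6:56323655-56324937. Of 5 neighbouring sites at chr6:56483621-56485390, 4 were listed by scrambled replicate 1 alone, as peaks of 61 to 181 nt. As much as 40.2% of all DST sequence with a peak was covered in 1 library only, the highest share among the 9 genes.

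The DST means were 2988 ± 1840 nt in knockdown and 3933 ± 3340 nt in scrambled (SD, n = 3 each). The difference of -945 nt was within that spread (exact permutation test, two-sided, p = 0.8). Without knockdown replicate 2 it was 66.83 nt and without scrambled replicate 3 it was 876.2 nt. Its sign thus turned without either library, each of which leaves its partner unmatched. As a share of all exon sequence its list covered, DST was lower in knockdown in each pair, by ratios of 0.683, 0.834 and 0.603 (exact sign-flip test of the 3 differences, p = 0.25, the smallest that 3 pairs allow).

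FAT1 encodes a giant protocadherin at cell contacts, and its peaks fell in clusters far apart at chr4:187509507-187647760 on the minus strand. It had 13, 10 and 10 peaks in knockdown and 13, 11 and 12 in scrambled, the narrowest range of the 9 genes. Those peaks covered 6821, 2198 and 9245 nt in knockdown and 4061, 1990 and 8438 nt in scrambled. Covered length was larger in knockdown in all 3 pairs, by ratios of 1.68, 1.1 and 1.1, with no more peaks in any pair. Against the spread of the groups, 6088 ± 3580 nt and 4830 ± 3290 nt (SD, n = 3 each), the difference of 1258 nt was not distinguishable (exact permutation test, two-sided, p = 0.7). The exact sign-flip test of the 3 pairs gave p = 0.25, the smallest that 3 pairs allow. The difference was -320.2 nt without knockdown replicate 3 and -161.5 nt without scrambled replicate 2.

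Shared places were many in FAT1. Of its 12 sites, 6 were called in all 6 libraries, and the site closest to the 3' end of the covered sequence, chr4:187509507-187510256, held exactly 1 peak in each. At chr4:187522569-187525056 each library again had 1 peak, and the same 141-nt break between exon blocks, chr4:187524189-187524329, stood in a peak of all 6 libraries. The largest FAT1 site, chr4:187628184-187644850 with 2849 nt of exon sequence, held 4, 4 and 1 peaks in knockdown and 3, 4 and 2 in scrambled. In knockdown replicate 3 its 1 peak was as long as the site and spanned a 13818-nt break.

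ZNF469, a large zinc finger protein known for its part in corneal connective tissue, resembled AHNAK2 in layout. It had 76 peaks at chr16:88493879-88506147 on the plus strand, and 92.3% of that 12269-nt span was covered in at least 1 library. The knockdown libraries listed 11, 14 and 9 peaks against 15, 15 and 12 in scrambled, fewer in each pair. They covered 8062, 6660 and 10396 nt against 5104, 3218 and 7973 nt, more in each pair, by ratios of 1.58, 2.07 and 1.3. ZNF469 and FAT1 were the only 2 of the 8 genes with a peak in all 6 libraries where covered length was larger with no more peaks in all 3 pairs, and 11.7% of all 2452 such genes showed this.

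The knockdown mean of ZNF469 was 8373 ± 1890 nt and the scrambled mean 5432 ± 2390 nt (SD, n = 3 each). The difference of 2941 nt gave p = 0.2 (exact permutation test, two-sided), where 0.1 is the smallest possible, and knockdown replicate 2 lay below scrambled replicate 3. Without scrambled replicate 3, or without knockdown replicate 2, the remaining libraries of the groups did not overlap. How many of all genes separated in this way was not computed. The difference kept its sign whichever library was left out, between 1834 and 4212 nt. As a share of the list, ZNF469 was higher in knockdown by ratios of 1.01, 1.83 and 1.3.

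Of the 7 ZNF469 sites, 5 were called in all 6 libraries, 0 were called in only 1, and 5 were cut into several peaks by at least 1 library. All 6 libraries covered 10 stretches of ZNF469, 2045 nt in all and 18.1% of its covered sequence, the highest share among the 9 genes. The longest of these ran for 450 nt at chr16:88501866-88502315. In knockdown replicate 3 a 2964-nt peak at chr16:88497436-88500399 overlapped 3 peaks of scrambled replicate 3. The best-scored ZNF469 peak of each library stood between the 95.3rd and the 99.7th percentile of its list. A best peak is picked from several, so it does not describe the rest. The median percentile of the ZNF469 peaks was 69.9, 71.6 and 95.8 in knockdown and 56.2, 63.2 and 71.3 in scrambled.

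ANKRD11 encodes a nuclear ankyrin repeat protein that binds chromatin regulators. Its peak number was also steady, with 12, 11 and 11 in knockdown and 14, 13 and 10 in scrambled. Its peaks lay at chr16:89334299-89484714 on the minus strand, most of them inside the stretch chr16:89346079-89354733. They covered 7535, 3517 and 8103 nt in knockdown and 5107, 2831 and 8163 nt in scrambled. The pair ratios were 1.48, 1.24 and 0.993, and the means of 6385 ± 2500 nt and 5367 ± 2680 nt (SD, n = 3 each) were not distinguishable (exact permutation test, two-sided, p = 0.7). The difference of 1018 nt was -250 nt without scrambled replicate 2, 159 nt without knockdown replicate 3 and 2452 nt without knockdown replicate 2.

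Of the 9 ANKRD11 sites, 5 were called in all 6 libraries and 1 in 1 library only, a 61-nt peak of scrambled replicate 2. A peak at the 5' end of the covered sequence was joined over a 97927-nt break between exon blocks in knockdown libraries, 2 in all and 0 scrambled. Inside the ANKRD11 extent the lists also held 8 peaks on the opposite strand, under LOC100287036. They were not counted here, and whether the peak calling used strand is not given in the sources used here.

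ZFHX3 encodes a giant transcription factor with homeodomains and zinc fingers. Its 65 peaks lay at chr16:72816906-72993773 on the minus strand. There were 14, 8 and 13 peaks in knockdown and 12, 5 and 13 in scrambled, as many or more in knockdown in each pair. Covered length followed, with 5023, 998 and 7781 nt in knockdown and 3250, 965 and 6672 nt in scrambled, ratios of 1.55, 1.03 and 1.17. The means of 4601 ± 3410 nt and 3629 ± 2870 nt (SD, n = 3 each) differed by 971.7 nt, within the spread (exact permutation test, two-sided, p = 0.7), and by -618.5 nt without knockdown replicate 3.

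Few places were shared by all libraries in ZFHX3. Of its 16 sites, 2 were called in all 6 libraries, at chr16:72831780-72832380 and chr16:72821675-72828601. Knockdown libraries alone called 4 of the 16, among them chr16:72831360-72831540 in knockdown replicates 2 and 3, and scrambled libraries alone called 2, among them chr16:72816906-72817056 in scrambled replicates 1 and 3. None of these reached all 3 libraries of a condition. A further 4 peaks on the opposite strand fell within the ZFHX3 extent and were not counted.

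PCLO encodes Piccolo, a scaffold of the presynaptic active zone, and it was the only member absent from a list. It had 19 and 14 peaks in knockdown replicates 1 and 3, 11 and 19 in scrambled replicates 1 and 3, and 0 in replicate 2 of either condition. The peaks covered 5982 and 7985 nt in the knockdown libraries of replicates 1 and 3 and 1870 and 5443 nt in scrambled. Both knockdown values were thus above both scrambled values when replicate 2 was set aside, by ratios of 3.2 and 1.47 within the pairs. The whole lists had ratios of 1.57 and 1.0 in these pairs. How many of all genes separated in this way was not computed. With replicate 2 at 0 in both groups the means were 4656 ± 4150 nt and 2438 ± 2770 nt (SD, n = 3 each), and the difference of 2218 nt was within that spread (exact permutation test, two-sided, p = 0.5). Leaving out 1 library moved it between 553.3 nt (without knockdown replicate 3) and 4546 nt (without knockdown replicate 2). Replicate 2 differed from the others in RNA type, antibody and list size, and which of these goes with the missing PCLO peaks cannot be told apart.

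The PCLO peaks lay at chr7:82543925-82792107 on the minus strand, in 14 sites. Each of 5 sites was called in all 4 libraries that listed the gene, and 0 sites in all 6. The 5'-most of these 5, chr7:82764397-82785616, was cut into 2 peaks in knockdown replicates 1 and 3, 4 in scrambled replicate 1 and 6 in scrambled replicate 3. A 1170-nt peak of knockdown replicate 1 at chr7:82784177-82785346 overlapped 3 peaks of scrambled replicate 1. The site chr7:82581267-82581417 was called in knockdown replicates 1 and 3 and in 0 scrambled libraries. A peak in 1 knockdown library and a peak in 1 scrambled library joined exon blocks across 167762 nt, the longest break in the 9 genes.

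CENPF encodes centromere protein F, a large coiled-coil protein of the kinetochore in dividing cells. Its 62 peaks lay at chr1:214776562-214837226 on the plus strand, and 20 of them (32.3%) ran over more than 1 exon block, the highest share among the 9 genes. Knockdown had 13, 6 and 11 peaks, and scrambled had 12, 8 and 12. These covered 3932, 1202 and 4260 nt in knockdown and 3303, 1505 and 6599 nt in scrambled, ratios of 1.19, 0.799 and 0.646. The means of 3131 ± 1680 nt and 3802 ± 2580 nt (SD, n = 3 each) were not distinguishable (exact permutation test, two-sided, p = 0.9), and the sign of the difference of -671 nt turned without knockdown replicate 2 (293.7 nt) or scrambled replicate 3 (727.3 nt). As a share of the list, CENPF was lower in knockdown in each pair, by ratios of 0.758, 0.708 and 0.645 (exact sign-flip test, p = 0.25).

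Some CENPF peaks crossed the same exon joints in several libraries. The break chr1:214816668-214817899, 1232 nt long, stood in a peak of all 6 libraries, and the break chr1:214820744-214822017 in 5. Of its 10 breaks, 4 stood in 1 library only and 2 in 2 libraries. Of its 12 sites, 4 were called in all 6 libraries, and the site chr1:214813513-214814112 held exactly 1 peak in each. The site chr1:214814321-214814860 was called in all 3 scrambled libraries and in knockdown replicate 3 alone. CENPF was also the only one of the 9 genes with 0 peaks of 1000 nt or more. Its longest peak, 989 nt over 3 exon blocks, was in scrambled replicate 3.

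**Figure D3:**
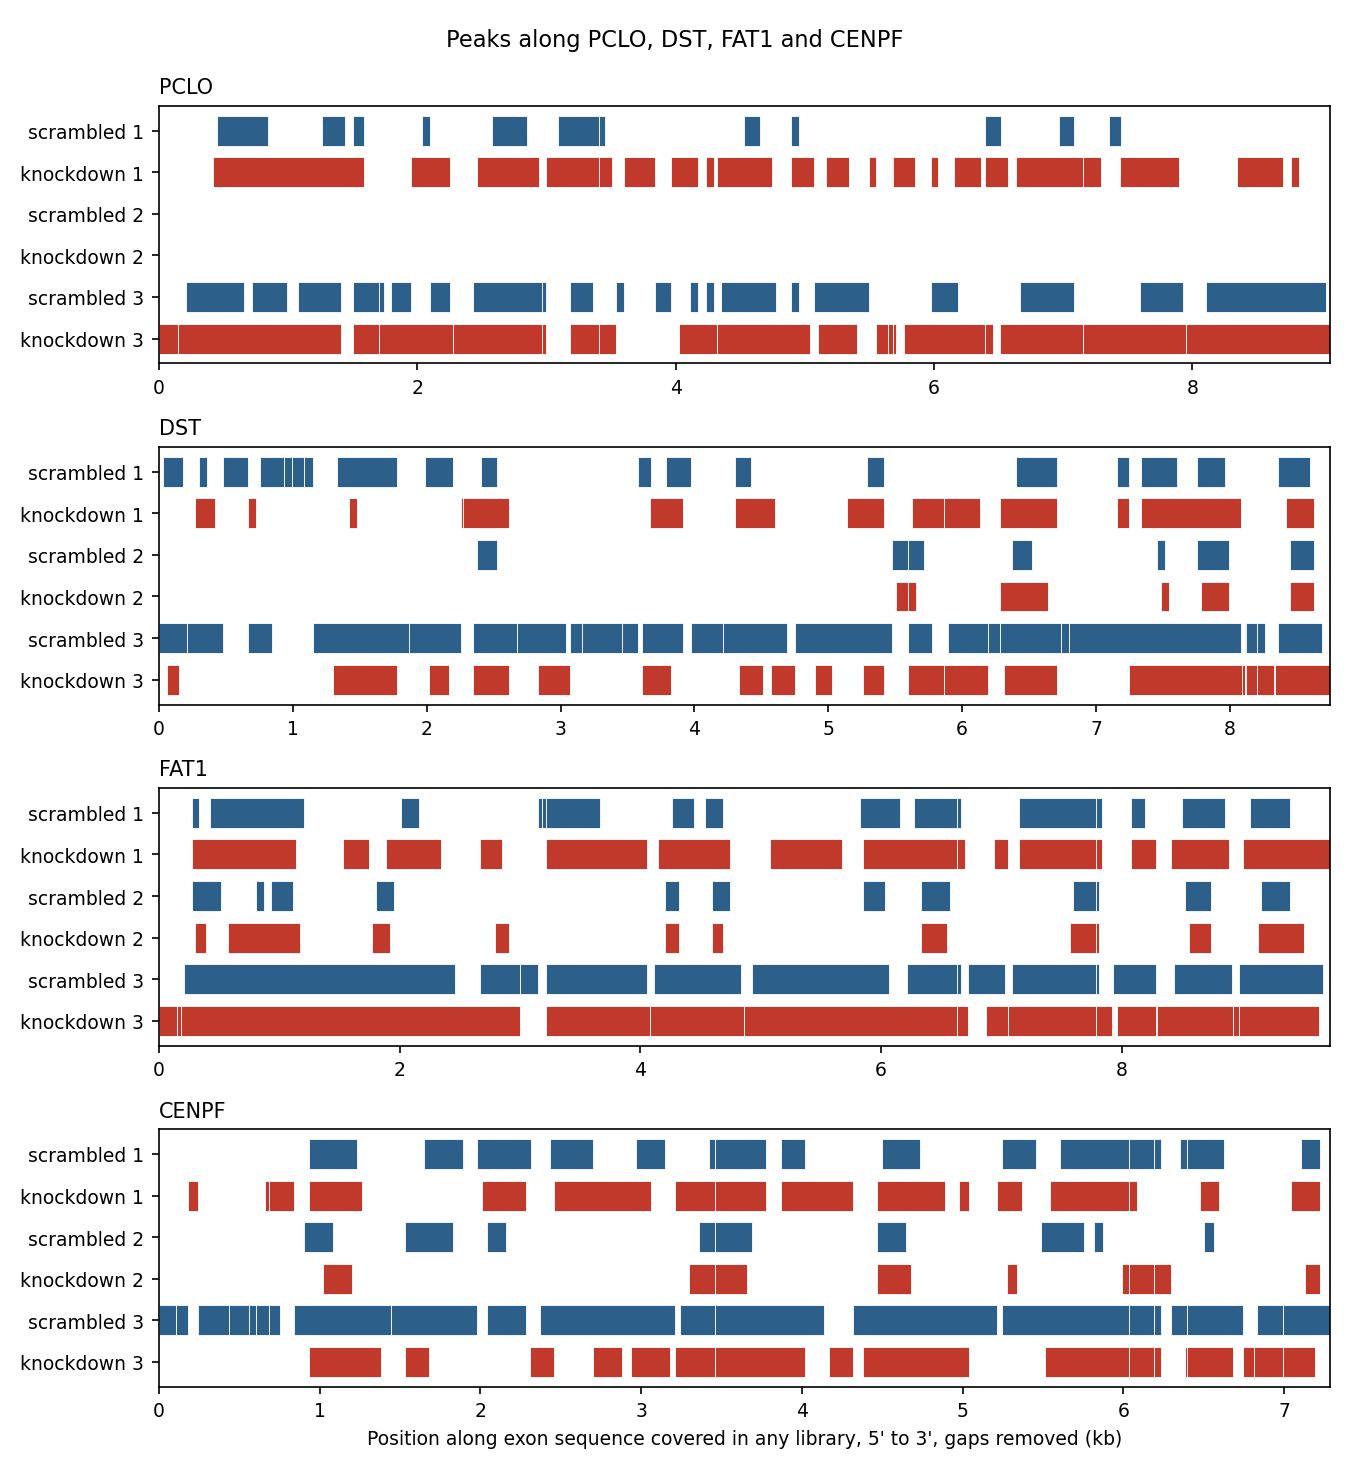
Peaks of each library along PCLO, DST, FAT1 and CENPF, drawn on the exon sequence covered in any library with uncovered sequence removed, 5' to 3' in kb, 1 row per library, scrambled in blue above its same-numbered knockdown partner in red. Every bar has a thin white edge, so a white line can stand between exon blocks of 1 peak or between separate peaks that meet where sequence was removed. PCLO has no bar in replicate 2, DST has the most bars in the scrambled libraries of replicates 1 and 3 (19 and 20 peaks), and in each of DST, FAT1 and CENPF some places have a bar in all 6 rows, which adds up to 484, 1268 and 452 nt.

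Over the 9 genes the peaks formed 111 sites. Of these, 31 were called in all 6 libraries, where 12.7% of all 21675 sites in the lists were. Peaks are chained by overlap, so such a site need not hold a nucleotide covered in all 6 libraries. The sites chr11:62287508-62289006 (AHNAK), chr16:89353894-89354733 (ANKRD11) and chr1:214819923-214825156 (CENPF) held none. At least 1 library cut 40 of the 111 into 2 or more peaks, where 20.4% of all sites were cut in this way. The genes were chosen for many peaks, so nothing is read from these shares. No site of the 9 genes was called in all 3 knockdown and no scrambled libraries, or the reverse. The same was rare everywhere, with 0.129% of all sites in the first class and 0.00923% in the second.

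Neighbouring peaks of 1 library in 1 gene were separated by a median of 448 nt of genomic distance, over 598 gaps. The shortest gap was 58 nt, 40 gaps were no longer than 61 nt, and 56 were longer than 10000 nt. By gene the median was shortest in ZNF469 (313 nt), AHNAK2 (329 nt) and PCLO (359 nt) and longest in FAT1 (2280 nt) and DST (1888 nt). By library it was 418, 599 and 328.5 nt in knockdown and 583, 747.5 and 359 nt in scrambled, shorter in knockdown in each pair. Spacing was thus widest in the short lists of replicate 2 and tightest in those of replicate 3. Gap size depended on which peaks a list kept: with all lists reduced to 5677 peaks by score, the median was 958 nt.

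Peak lengths followed a fixed step. Among the 583 peaks with 1 exon block, 98.5% had a length within 1 nt of a multiple of 30 nt, against 84.2% of all 70797 such peaks in the lists. Of the 598 gaps between neighbours 49.0% were within 1 nt of such a multiple, so the step was seen in the lengths and less in the spacing. Differences in length of less than 30 nt are therefore hardly resolved for these peaks. In all, 67 of the 650 peaks (10.3%) ran over more than 1 exon block, with 3 blocks at most, and 13.0% of all other peaks did. CENPF, FAT1 and PCLO had the highest shares, and AHNAK, AHNAK2, ZFHX3 and ZNF469 had at most 3 such peaks each.

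**Figure D4:**
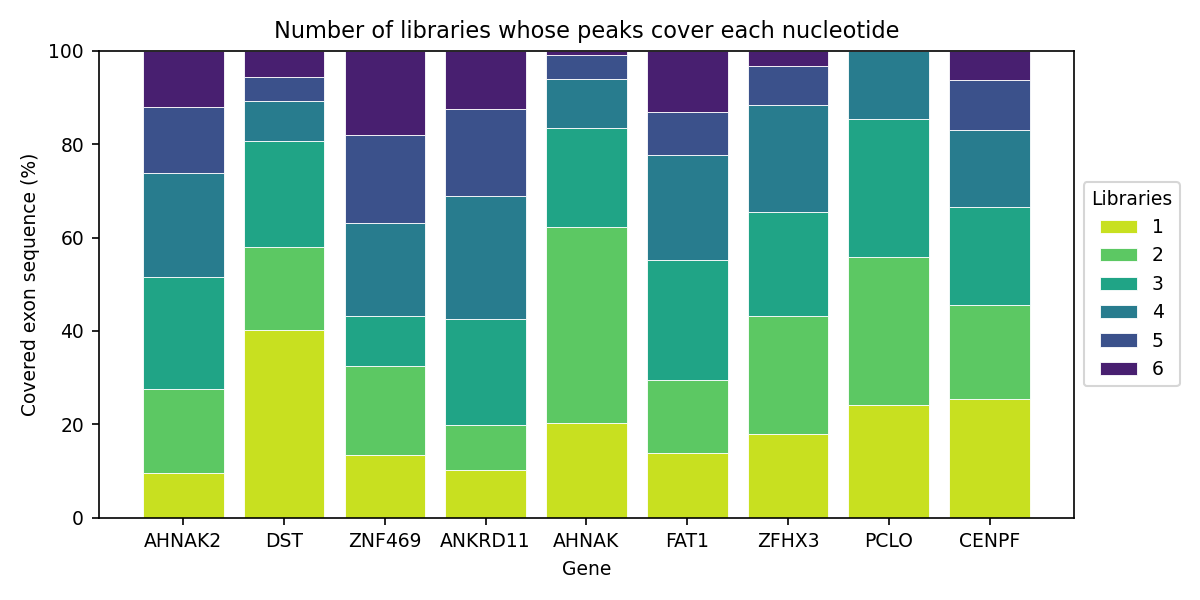
For each of the 9 genes, the share in percent of its covered exon sequence that was under a peak in 1, 2, 3, 4, 5 or 6 libraries. All 6 libraries shared 18.1% in ZNF469, 13.0% in FAT1 and 0.824% in AHNAK, PCLO has no such share, and 40.2% of DST was covered in 1 library only.

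Libraries shared the sequence of these genes to different degrees. The Jaccard index, shared over joint nucleotides of the 9 genes, was 0.539 ± 0.173 (SD) for the 3 same-numbered pairs, 0.347 ± 0.15 (SD) for the 6 pairs with the same siRNA, and 0.336 ± 0.146 (SD) for the 6 pairs with neither in common. The pairs share libraries, so these SDs are descriptions and no test was made. The index of the same-numbered pairs was 0.458, 0.422 and 0.738, so pair 3 raised their mean. Knockdown replicate 1 was closer to knockdown replicate 3 (0.635) and to scrambled replicate 3 (0.613) than to its own partner. Knockdown and scrambled replicate 3 stood closest, at 0.738, and knockdown replicate 3 and scrambled replicate 2 farthest apart, at 0.206. As a share of the smaller of 2 libraries, the same-numbered pairs shared 86.6%, 66.3% and 87.1%, and all other pairs from 61.4% to 95.9%. The index falls when lists differ in extent, and nearly all of what the short lists held was also in the longer ones: 97.7% of the nucleotides of knockdown replicate 2 and 98.5% of those of scrambled replicate 2 lay under peaks of replicates 1 or 3.

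Peaks that bridged several peaks of the partner library were more frequent on the knockdown side in each pair. In pairs 1, 2 and 3, 22, 9 and 20 knockdown peaks each overlapped at least 2 peaks of the scrambled partner, whereas 2, 4 and 10 scrambled peaks overlapped at least 2 knockdown peaks. These were 17.5%, 11.4% and 18.7% of the members' knockdown peaks and 1.68%, 4.44% and 7.75% of their scrambled peaks. Over all peaks with a gene number the shares were 9.39%, 2.24% and 5.5% for knockdown and 2.6%, 1.35% and 5.16% for scrambled, so the same side was ahead there too. The members were chosen for having many peaks per gene, which bridging needs, and nothing particular to them is read from these shares. Peaks without any partner numbered 46, 18 and 12 on the knockdown side and 13, 25 and 17 on the scrambled side. As shares these were 36.5%, 22.8% and 11.2% of their knockdown peaks, where all peaks with a gene number gave 36.9%, 37.0% and 15.3%. The scrambled shares were 10.9%, 27.8% and 13.2%, where all peaks gave 16.2%, 33.7% and 16.2%. Knockdown peaks held 86.6%, 66.3% and 87.1% of the scrambled nucleotides, and scrambled peaks held 49.3%, 53.7% and 82.8% of the knockdown nucleotides. The imbalance was thus widest in pair 1, whose whole lists also differed most in covered length, by the ratio of 1.57 given above. The part of list extent in the bridging was not tested.

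**Figure D5:**
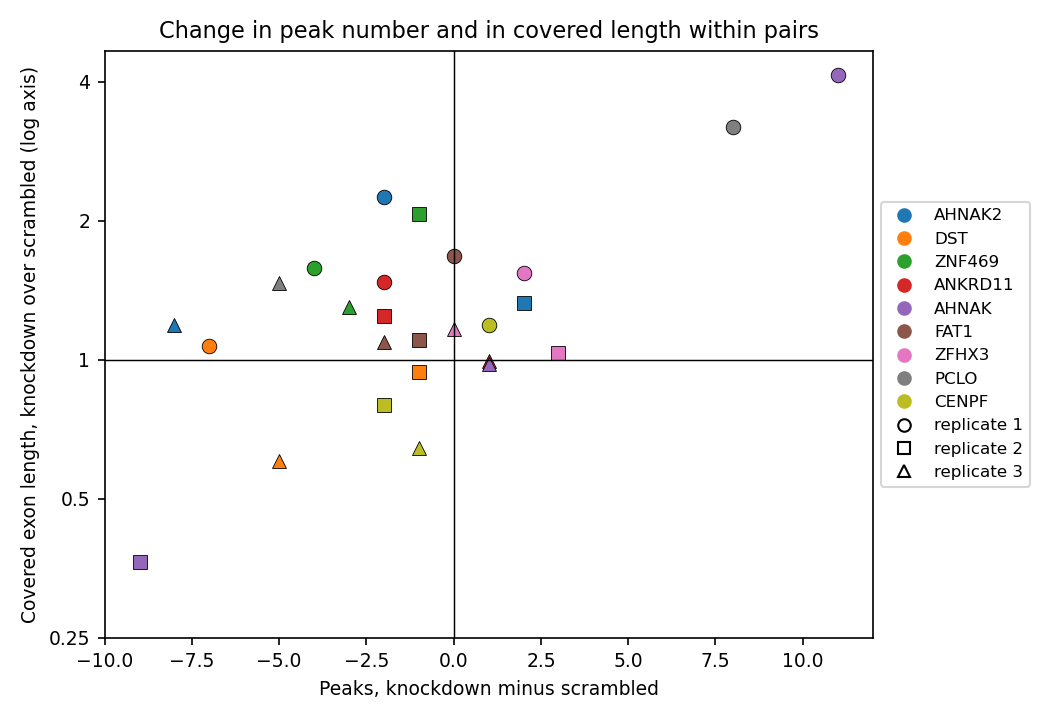
Change within same-numbered pairs for each gene: peaks in knockdown minus scrambled on the x axis, covered exon length in knockdown over scrambled on the y axis (log axis), 1 point per gene and pair, color for the gene and marker shape for the replicate number. Of the 26 points, 11 lie in the upper left, with fewer peaks but more sequence in knockdown, and AHNAK takes both extremes, at a ratio of 4.14 in replicate 1 and 0.364 in replicate 2.

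In the comparison of knockdown with scrambled over libraries, 0 of the 8 members with a peak in all 6 libraries had a higher covered length in every knockdown than in every scrambled library, and 0 a lower one. Over all 2452 genes with a peak in all 6 libraries, 0.163% were higher and 0.0% lower in this sense. The same exact permutation test run on all 2452 genes gave a smallest p of 0.1, which is the smallest possible, and after Benjamini-Hochberg adjustment 1.0. At an unadjusted threshold of 0.05 the count was 0, which this design cannot exceed.

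The labels tie each replicate number to an RNA type and antibody, so the libraries were also compared with the replicate number as a block. Covered length was higher in knockdown in all 3 pairs for 4 of the 8 members, AHNAK2, ZNF469, FAT1 and ZFHX3, and lower in all 3 pairs for 0. Among all 2452 genes 34.1% were higher in all 3 pairs and 2.08% lower. No p below 0.25 is possible from 3 pairs (exact sign-flip test), and each of these 4 genes had that value. Whole lists were more extensive in knockdown in pairs 1 and 2. With covered length taken as a share of its list, AHNAK2 and ZNF469 were higher in all 3 pairs and DST and CENPF lower, where 14.6% and 16.8% of all genes were. On that scale 0 of the 8 members were higher, and 0 lower, in every knockdown than in every scrambled library, against 3.02% and 2.41% of all genes.

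Relatives of the 9 genes ranged from 0 to 50 peaks. The plakin family, cytoskeletal linkers like DST, had 4 of 5 genes with a peak, with 50 peaks in MACF1, 30 in DSP and 1 in PPL. Among 5 spectrin genes 3 had a peak, and the median was 6 peaks. Of the giant cadherins 8 of 9 had a peak, and after FAT1 the most were in FAT4 (45), DCHS1 (39) and CELSR3 (28). For the presynaptic active zone it was 6 of 7, and BSN, which encodes the partner scaffold Bassoon, had 36 peaks and, like PCLO, 0 in both libraries of replicate 2. ERC2 (7 peaks), UNC13A (6) and UNC13B (7) of the same list also had 0 in both libraries of replicate 2. ERC1, with 36 peaks, was the only gene of that list with a peak in all 6 libraries. Kinetochore genes were mostly poor in peaks: 8 of 12 had one, the median was 1 peak, and KNL1 (27) and CENPE (14) came after CENPF.

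Other very long transcripts ranged from 0 to 54 peaks. Of 25 other genes chosen for very long coding transcripts, 23 had a peak and 12 had one in all 6 libraries, with a median of 10 peaks summed over the lists. MGA (54), RNF213 (53) and KMT2A (50) were at the top, and UBR4 and FLNA had 0. Among large zinc finger genes ZNF646 (34), ZNF462 (29) and ZNF609 (26) followed ZNF469. ANKRD12, the paralog of ANKRD11, had 29 peaks and ZFHX2, a relative of ZFHX3, had 19.

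The share of each list that the 9 genes took, in peaks per 1000, was most closely followed by PWWP3A (Pearson r = 0.998), ERC1 (r = 0.997) and CHD7 (r = 0.994) among 430 other genes with at least 20 peaks, over 6 libraries. This is a description, and the points share lists of unequal length, shortest in replicate 2. Among the members, the correlation of each with the other 8 was 0.93 or more for AHNAK2, ZNF469, ANKRD11, FAT1 and CENPF. It was 0.62 for ZFHX3, 0.54 for AHNAK, 0.08 for DST and -0.94 for PCLO, which had no peak in replicate 2.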

How the data were processed

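Peak lists of 6 m6A immunoprecipitates were analysed. The tools named by the submitters' processing notes are CASAVA 1.8.2, TopHat2 and SAMtools, and the build is hg19. The peak caller, threshold and any use of inputs were not given in the sources used here. A list, as the authors deposited it, has 12 columns per peak: a position, strand, exon blocks, a gene number, a score, treated here as a p-value because of its range, and a count of exon blocks. Each library had its own list, hence peaks came from single libraries and not from pooled replicates. A stricter threshold or fewer reads shorten a list, and depth is unknown.

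Genes were matched by Entrez number, and names came from a RefSeq gene table (GRCh38.p14), in which 10500 of 10536 numbers matched. Coordinates are hg19, counted from 1. Peaks whose exon blocks overlapped by at least 1 nt on the same strand were joined into sites. Positions were not placed in exons or UTRs, and no sequence is shown, since no hg19 genome was used here. The rule asked for 10 genes, and 1 is not reported here. Named beside the members are the 3 genes just below them, the 3 genes closest in share of list, and relatives from the lists. The plan was to name up to 3 relatives per list, and more are named for the presynaptic genes and the very long transcripts. Members and lists were chosen with earlier results of these data known.

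Covered length was compared over libraries with an exact permutation test (difference of means, two-sided) and, as a replicate block, with an exact sign-flip test of the same-numbered pairs, which the protocol text ties to RNA type and antibody. The code was tested on simulated data. Python 3.11.15, numpy 2.4.6 and pandas 2.3.3 were used. The control input of replicate 3 carries the sample type of an immunoprecipitate and entered no comparison.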

Additional observations from a re-analysis of the deposited data

How the results depend on the processing

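With the 16 results recomputed under up to 16 alternatives, 17 of 241 values turned in sign and 20 moved, meaning a count changed by over 1.5 times or the spacing by more than its SD over libraries. For the other 204 that was not so, but for the differences in covered length this says only that the sign held, and their size moved widely, as the ranges below show. No difference of a gene passed the threshold of 0.05 in any setting. None could, since the smallest p possible with 3 against 3 is 0.1 and no setting used more libraries. Nothing is read from this about the turns in sign. Keeping the best-scored 50% of each list left 19 sites called in all libraries, 18 split sites and a median spacing of 898.5 nt, with AHNAK at -580.7 nt and CENPF at 10.0 nt. At equal list size (5677 peaks) there were 17 such sites, 16 split sites, a spacing of 958 nt, AHNAK at -772 nt, and 1 gene, ZNF469, higher in every knockdown library. Without both libraries of replicate 2, 56 sites were called in all libraries, and 2 genes (ZNF469 and PCLO) were higher in both knockdown libraries. There, 1 site was called only in knockdown (PCLO) and 1 only in scrambled (ZFHX3). The shares of all genes and sites were not computed for these settings, and separation is easier with fewer libraries. Nothing particular to the members is read from these counts.

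With the replicate block 4 genes were higher in all pairs, and with the share of the list and the replicate block 2 were higher and 2 lower; the block changed no other call. AHNAK was at -333.5 ppm as a share of the list, with or without the block. The share of the list, and sites from numbered peaks alone, were added after the data were seen.

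Leaving out 1 library gave 31 to 39 sites called in all libraries, 37 to 42 split sites and spacings of 418.5 to 479 nt. It gave 0 to 2 genes higher and 0 lower in every knockdown library, and 0 to 1 site in each condition alone. Shares over all genes and sites were not computed for these settings either. The differences then ranged from 1200 to 6527 nt in AHNAK2, -2399 to 876.2 in DST, 1834 to 4212 in ZNF469, -250 to 2452 in ANKRD11, -2164 to 3217 in AHNAK, -320.2 to 3203 in FAT1, -618.5 to 2773 in ZFHX3, 553.3 to 4546 in PCLO and -1820 to 727.3 in CENPF. AHNAK turned without knockdown replicate 3 (-2164), scrambled replicate 1 (-1311) or scrambled replicate 2 (-769.2), DST without knockdown replicate 2 (66.83) or scrambled replicate 3 (876.2), and CENPF without the same libraries (293.7 and 727.3). FAT1 and ZFHX3 turned without knockdown replicate 3 (-320.2 and -618.5) or scrambled replicate 2 (-161.5 and -360.3), and ANKRD11 without scrambled replicate 2 (-250). Leaving out 1 library leaves its same-numbered partner unmatched, and RNA type, antibody and list size go with the replicate number. In every member replicate 3 had the largest covered length of its group, and replicate 2 lay below its group mean. The difference therefore had to rise without knockdown replicate 2 or scrambled replicate 3. It likewise had to fall without knockdown replicate 3 or scrambled replicate 2. What the turns owe to RNA type, antibody or list size, or to the fewer peaks or libraries that these settings leave, was not tested.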
